A study of Mus musculus with 6 samples.

Results

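Autophagy and mitophagy genes were followed in mouse gastrocnemius, the large calf muscle, as 10 genes: Gabarapl1, Map1lc3a, Map1lc3b, Ulk1, Becn1, Sqstm1, Bnip3, Bnip3l, Ctsl and Tfeb. They were chosen with earlier results of these data known, and their probe sets were found by gene symbol in the platform annotation. Of the 10, 9 had probe sets annotated to them alone (21 probe sets), and all 9 passed the filter on signal, among 11526 genes tested of 18193 with a probe set. Bnip3l shares its 3 probe sets with the pseudogene Bnip3l-ps, so those values belong to neither gene alone. The study fed male C57BL/6J mice 1 of 3 diets for 15 weeks from 6 weeks of age. In HF+SFC+ALA, 0.023% by weight of the iron salt sodium ferrous citrate (SFC) and 0.2% of 5-aminolevulinic acid phosphate (ALA, from which heme is made) were mixed into the HF diet. The HF diet held 60 kcal% fat and the Control diet 10 kcal% fat. Muscle was taken after 24 h or 4 h without food, and each of the 6 combinations was 1 array of RNA pooled within the group. No combination was repeated, and how many animals made up a pool is not known here. An age of 21 months is stated in the labels, but the feeding scheme comes to 21 weeks.

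Autophagy wraps cytoplasm in a double membrane, the autophagosome, and delivers it to the lysosome for breakdown. The ULK1 kinase starts the process, a lipid kinase complex built around Beclin 1 marks the site, and proteins of the ATG8 family (the LC3 and GABARAP proteins) are attached to the growing membrane, where receptors bind them and bring in cargo. Mitophagy is the same route for mitochondria, with BNIP3 and BNIP3L as receptors in the mitochondrial outer membrane. In skeletal muscle, autophagy rises with fasting, and FoxO transcription factors are known to induce several of its genes.

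RefSeq promoter windows of 250 bases before the transcription start (GRCm38.p6) were found for 7 of the 10 genes, in 9 windows. Those of the 2 genes that passed a test, Gabarapl1 and Ulk1, and of the 2 genes whose windows hold an E-box, Bnip3 and Ctsl, are shown 5′ to 3′ on the gene's strand. They lie at chr6:129532942-129533191 (plus strand), chr5:110810082-110810331 (minus), chr7:138909507-138909756 (minus) and chr13:64370521-64370770 (minus).
Gabarapl1: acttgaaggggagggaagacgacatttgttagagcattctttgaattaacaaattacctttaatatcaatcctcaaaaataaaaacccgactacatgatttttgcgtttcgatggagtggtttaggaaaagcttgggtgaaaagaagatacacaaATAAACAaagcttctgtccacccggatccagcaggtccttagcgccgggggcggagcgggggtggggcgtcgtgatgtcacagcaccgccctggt
Ulk1: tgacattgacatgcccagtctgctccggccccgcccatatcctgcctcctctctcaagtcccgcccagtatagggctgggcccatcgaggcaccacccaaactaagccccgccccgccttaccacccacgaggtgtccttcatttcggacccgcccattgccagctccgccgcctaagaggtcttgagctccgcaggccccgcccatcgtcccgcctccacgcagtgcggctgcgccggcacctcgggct
Bnip3: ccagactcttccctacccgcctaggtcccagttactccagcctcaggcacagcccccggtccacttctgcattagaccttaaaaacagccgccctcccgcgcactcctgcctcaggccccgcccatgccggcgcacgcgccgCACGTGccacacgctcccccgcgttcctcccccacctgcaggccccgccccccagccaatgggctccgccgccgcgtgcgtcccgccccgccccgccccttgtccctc
Ctsl: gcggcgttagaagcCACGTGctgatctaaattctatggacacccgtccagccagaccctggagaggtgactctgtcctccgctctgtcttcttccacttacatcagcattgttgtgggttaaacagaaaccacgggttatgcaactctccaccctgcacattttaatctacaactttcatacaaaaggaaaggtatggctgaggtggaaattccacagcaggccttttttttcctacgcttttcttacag
Capitals mark the motifs searched on both strands. The forkhead motif, which FoxO factors can bind, was searched as GTAAACA and as ATAAACA, and the E-box, which TFEB can bind, as CACGTG. The core of the hypoxia response element, ACGTG, overlaps the E-box by construction. The Gabarapl1 window holds ATAAACA, starting 95 bases before the start site, and 4.16% of 32851 windows of this length hold it. The Bnip3 and Ctsl windows hold CACGTG, starting 108 and 236 bases before the start site, a motif in 6.02% of windows. In both, ACGTG lies inside that E-box, and 16.6% of windows hold it. None of the 9 windows holds GTAAACA, which 3.17% of windows hold. The Ulk1 window holds none of these letters. A match is a description of the sequence only.

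Each value is a MAS5 signal, a linear intensity scaled by the authors to the same trimmed mean (500.004) on every array, and precision is limited by the number of arrays. Differences are log2, from an additive limma model of diet and fasting time over the 6 pools, with its standard error, and p-values are adjusted by Benjamini-Hochberg over all 11526 genes. The spread behind them is how far the pools depart from that additive model, on 2 residual degrees of freedom, and not a spread between replicates. It is moderated with 7.27 prior degrees of freedom, estimated over all genes by intensity. The muscle markers Acta1 (skeletal actin) and Ckm (muscle creatine kinase) were bright in all 6 pools, at 41541 to 47742 and 37327 to 47593. The HF pool at 4 h stood apart in its actin 3′ to 5′ ratio, at 1.52, against 1.08 to 1.22 in the other 5 pools. Its Gapdh 3′ to 5′ ratio, at 0.83, lay within the 0.81 to 0.86 of the other 5 pools. The summed signals of 7 slow fibre markers were 67338, 93438 and 70972 at 24 h in the HF+SFC+ALA, HF and Control pools, against 92963, 62397 and 83641 at 4 h. In pooled whole muscle, fewer cells of a type and less RNA per cell cannot be told apart.

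Fasting for 24 h went with higher signal of Ulk1 and Gabarapl1. Ulk1 rose 1.53-fold (0.62 ± 0.09, adjusted p = 0.0136) and Gabarapl1 1.62-fold (0.70 ± 0.13, adjusted p = 0.0333), each higher in 3 of 3 diets. These were 2 of 9 members higher and 0 lower in the limma fit, which called 2.41% of all genes, 1.49% higher and 0.92% lower. For 5 of 9 members (Gabarapl1, Map1lc3b, Sqstm1, Bnip3 and Ctsl) every pool at 24 h lay above every pool at 4 h, as was so for 10.6% of all genes, and 0 of 9 lay wholly below (8.36% of all genes). The median difference of the 9 members was 0.24, beside 0.01 over all genes tested. At an unadjusted p under 0.05 stood 6 of the 9, beside 17.7% of all genes. The members were chosen with earlier results of these data known, so these shares and medians are descriptions and not independent support. Neither call held without the filter on signal, with a gene averaged over its probe sets, with no intensity trend in the variance, or with diet left out of the model. Markers of other cell types moved with fasting too. Of 5 smooth muscle markers, 3 were called lower, with a summed signal of 7566 to 11009 at 24 h and 10324 to 14007 at 4 h. Of 6 fibroblast markers 1 was called lower, Col1a1 (-0.62, adjusted p = 0.0129), and 3 of 6 had positive differences. Of 14 macrophage markers 1 was called lower, Cd163 (-0.68, adjusted p = 0.0491), and 5 of 14 had positive differences (median -0.03). Cd36, listed for adipocytes, was the only one of its list called, and was higher (0.39, adjusted p = 0.0486). Of 9 adipocyte markers, 7 had an unadjusted p under 0.05, in both directions. The part of these cells in the members' values was not tested.

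**Figure D1:**
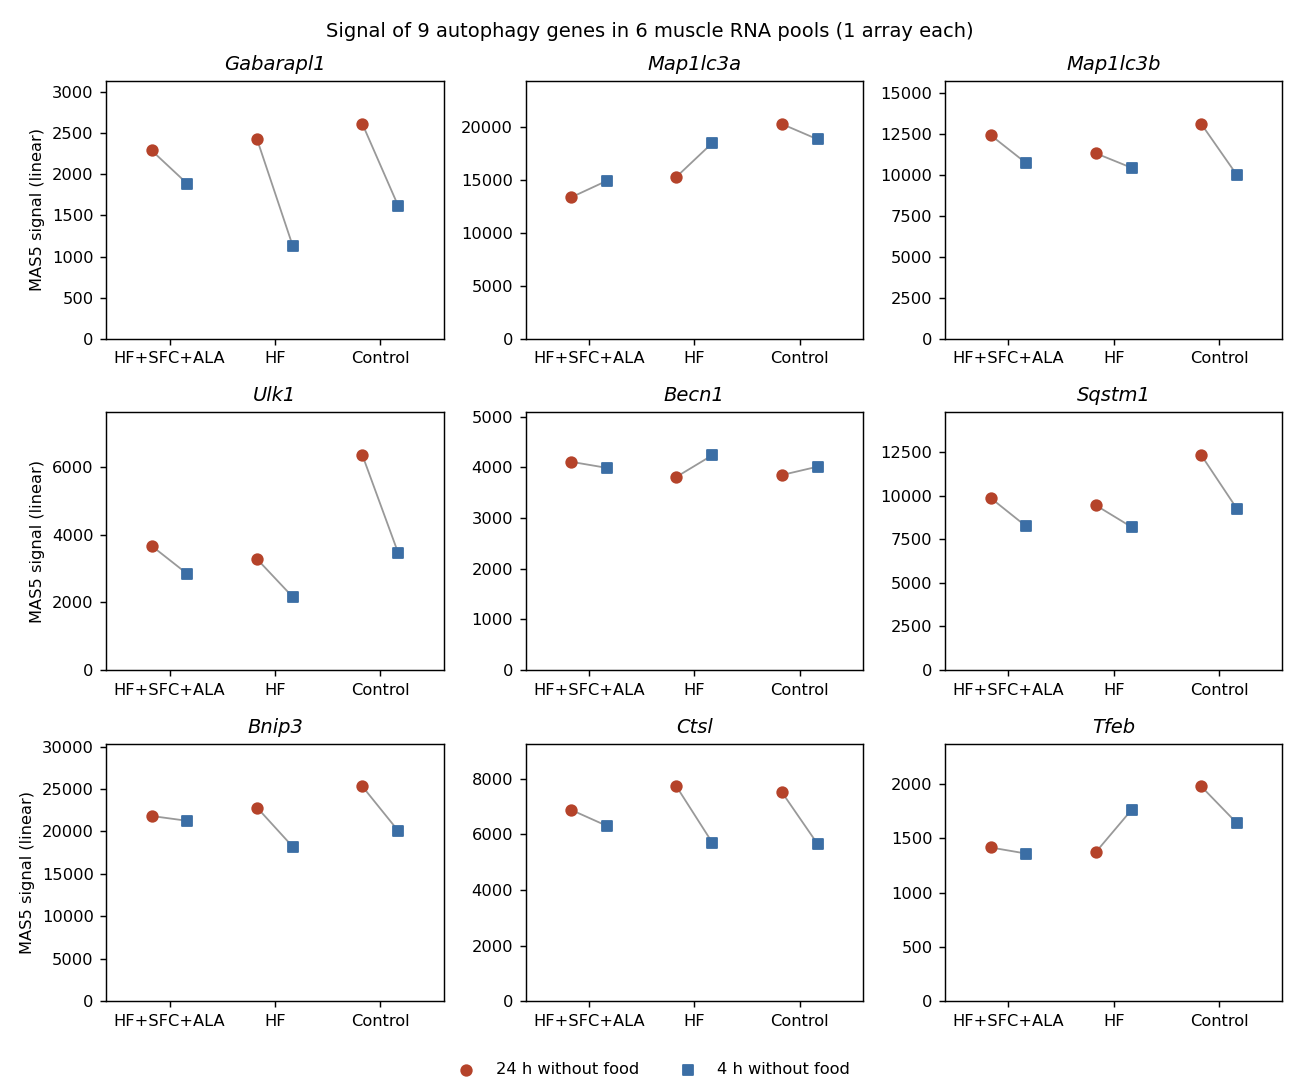
MAS5 signal (linear, y axis from 0) of the 9 measured members in the 6 pools, by diet, with 24 h (red circles) left of 4 h (blue squares); each point is 1 array and grey lines join pools of a diet. Ulk1 is highest in the Control pool at 24 h (6345) and lowest in the HF pool at 4 h (2154), while Becn1 stays between 3814 and 4241.

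Among the ATG8 family, Gabarapl1 encodes a GABARAP protein that is attached to autophagosome membranes. Gabarapl1 read 2289, 2427 and 2611 at 24 h in the HF+SFC+ALA, HF and Control pools, against 1883, 1125 and 1614 at 4 h. The means were 2443 ± 162 at 24 h and 1541 ± 384 at 4 h (SD over diets, n = 3 pools each), and the pools did not overlap. The pools at 24 h lay close together, and those at 4 h were further apart. The fasting difference was 0.28 in HF+SFC+ALA, 1.11 in HF and 0.69 in Control. The slow fibre markers gave median differences of -0.57, 0.69 and -0.17 in the same diets, and their part in the result was not tested. The HF difference rests on the pool at 4 h with the outlying actin 3′ to 5′ ratio (1.52), whose part was not tested either. With either HF pool left out, HF drops out of the fasting estimate, which was then 0.49, and the call did not hold. The probe set used is of a kind that can match transcripts of more than 1 gene (suffix _s_at), as are those used for Becn1 (_s_at) and Map1lc3a (_x_at). The other Gabarapl1 probe set had 1168, 1420 and 1621 at 24 h, against 1144, 801 and 852 at 4 h. It gave 0.59 ± 0.16 without passing (adjusted p = 0.108 in the limma fit over 22518 probe sets), again with no overlap between the times.

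Map1lc3b encodes LC3B, the ATG8 protein most used to mark autophagosomes. Map1lc3b read 12451, 11332 and 13125 at 24 h in the HF+SFC+ALA, HF and Control pools, against 10724, 10445 and 9984 at 4 h. The times did not overlap, yet the difference of 0.24 ± 0.07 did not pass (adjusted p = 0.12). The next 2 probe sets of Map1lc3b gave 0.26 ± 0.07 and 0.29 ± 0.08, also without passing, and its last was at the floor in 4 of 6 pools. Map1lc3a encodes LC3A, a close relative. Map1lc3a read 13384, 15328 and 20331 at 24 h, against 14956, 18535 and 18876 at 4 h, in the same order of diets. The times overlapped and the difference was -0.11 ± 0.08 (adjusted p = 0.534). The second Map1lc3a probe set gave 0.02 ± 0.06 (adjusted p = 0.918). The 3 ATG8 members thus had 1 call among them, and the direction of Map1lc3a differed between its probe sets.

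Ulk1, the kinase that starts autophagosome formation, had signals of 3667, 3277 and 6345 at 24 h in the HF+SFC+ALA, HF and Control pools, against 2835, 2154 and 3453 at 4 h. Within each diet the pool at 24 h was the higher one, by 0.37, 0.61 and 0.88, although the times overlapped across diets. The second Ulk1 probe set had 606, 589 and 647 at 24 h, against 441, 314 and 350 at 4 h, and also passed (0.75 ± 0.13, adjusted p = 0.0296 over probe sets). The fasting difference of Ulk1 stayed positive, at 0.49 to 0.74, with any 1 of the 6 pools left out. Each omission takes that pool's whole diet out of the fasting estimate, which then averages the remaining diets. With a rise within every diet the sign could not change, so these are not 6 separate checks. Becn1 encodes Beclin 1. Becn1 read 4111, 3814 and 3850 at 24 h, against 3991, 4241 and 4015 at 4 h, and the times overlapped. The difference was -0.06 ± 0.07 (adjusted p = 0.736, 95% interval -0.21 to 0.10). Its 4 other probe sets gave -0.16 to 0.34, none passing, and the one at 0.34 varied from 27.4 to 252 between pools (SE 0.85).

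Sqstm1 encodes p62, which binds ubiquitin-tagged cargo and LC3 and is itself broken down by autophagy. Sqstm1 read 9886, 9458 and 12335 at 24 h in the HF+SFC+ALA, HF and Control pools, against 8243, 8206 and 9243 at 4 h. The times did not overlap and the difference was 0.29 ± 0.07 (adjusted p = 0.0596, higher in 3 of 3 diets). The difference was 0.34 without either HF pool, and it passed after quantile normalization (0.30, adjusted p = 0.0402).

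Bnip3 encodes a mitophagy receptor that hypoxia and fasting are known to induce. Bnip3 read 21825, 22816 and 25304 at 24 h in the HF+SFC+ALA, HF and Control pools, against 21252, 18189 and 20071 at 4 h. The times did not overlap, but the gap between the 2 HF+SFC+ALA pools was 0.04, beside 0.33 in both HF and Control. The overall difference of 0.23 ± 0.08 did not pass (adjusted p = 0.15). Of the 3 probe sets shared by Bnip3l and Bnip3l-ps, the brightest had 5525, 5866 and 5756 at 24 h, against 4884, 5197 and 4845 at 4 h. These sets gave 0.20 ± 0.06, 0.14 ± 0.08 and 0.18 ± 0.11, none passing (adjusted p = 0.175, 0.444 and 0.459 over probe sets).

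Ctsl encodes cathepsin L, a lysosomal protease. Ctsl read 6884, 7725 and 7520 at 24 h in the HF+SFC+ALA, HF and Control pools, against 6307, 5705 and 5650 at 4 h. The times did not overlap, and the difference of 0.33 ± 0.08 did not pass (adjusted p = 0.0663). It was 0.13 in HF+SFC+ALA, 0.44 in HF and 0.41 in Control. The second Ctsl probe set, at 94.8 to 151, gave 0.36 ± 0.22 with overlap. Macrophages also express Ctsl. The summed signal of all 14 macrophage markers ran from 3953 to 6862 at 24 h and from 4376 to 6360 at 4 h, with none of the 14 missing from the test, and its part in the Ctsl values was not tested. Tfeb encodes the transcription factor that switches on lysosomal genes. Tfeb read 1417, 1375 and 1979 at 24 h, against 1360, 1766 and 1639 at 4 h. It overlapped, with differences of 0.06 in HF+SFC+ALA, -0.36 in HF and 0.27 in Control, and -0.01 ± 0.12 over the fit (adjusted p = 0.979). Whether the fasting response of any member differs between diets was not tested, since each diet has 1 pool per time.

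**Figure D2:**
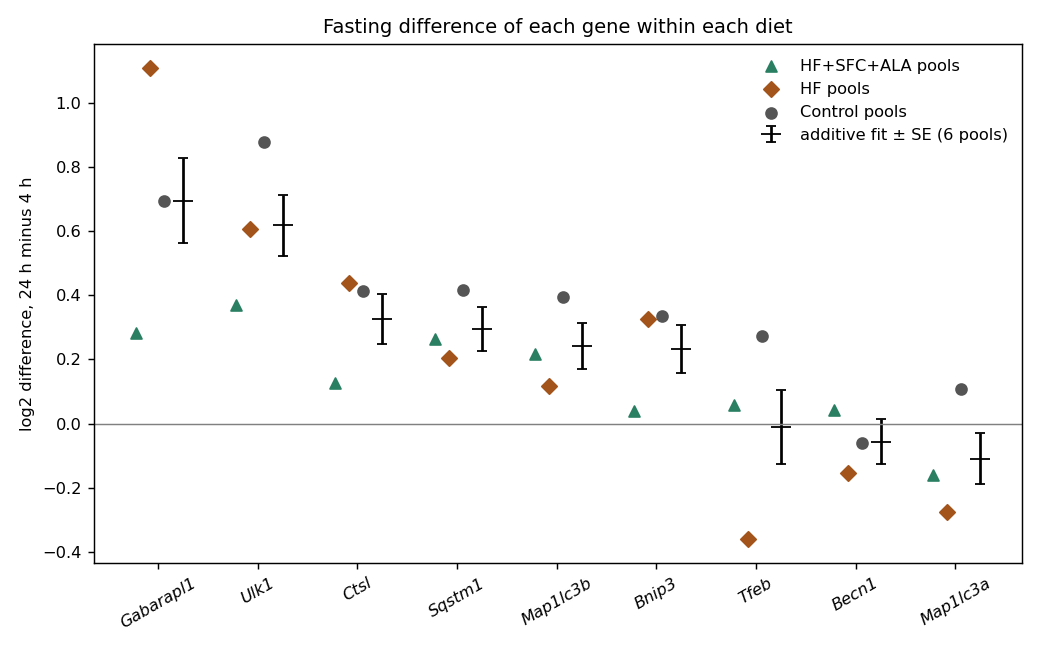
Log2 difference of 24 h minus 4 h (y axis) for each member (x axis) within HF+SFC+ALA (triangles), HF (diamonds) and Control (circles), with the additive fit ± SE over 6 pools (black). Gabarapl1 (0.70 ± 0.13) and Ulk1 (0.62 ± 0.09) lead. HF+SFC+ALA gave the lowest of the 3 values for Gabarapl1, Ulk1, Ctsl and Bnip3, and HF gave the lowest for Map1lc3a, Map1lc3b, Becn1, Sqstm1 and Tfeb.

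**Figure D3:**
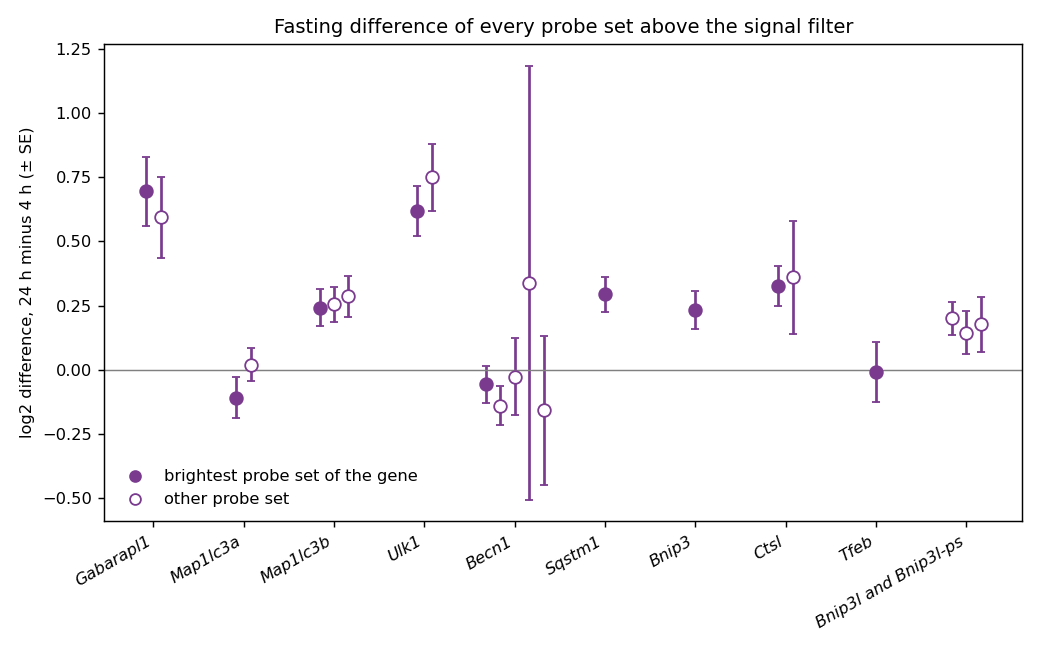
Log2 difference of 24 h minus 4 h ± SE (y axis) for every probe set above the signal filter (filled, the brightest of the gene; open, the others), from the fit over probe sets. The 2 Ulk1 sets (0.62 and 0.75), the 2 Gabarapl1 sets (0.70 and 0.59) and 3 Map1lc3b sets (0.24 to 0.29) lie on the same side of 0, while those of Becn1 and Map1lc3a lie on both sides.

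Between single pools, 2 of 9 members (Gabarapl1 and Ulk1) were at least 1.5-fold higher at 24 h than at 4 h in HF and the same 2 in Control, and 0 of 9 in HF+SFC+ALA. The share of all genes past that fold was 5.69% in HF, 6% in Control and 4.58% in HF+SFC+ALA. These counts compare 1 array with 1 array and have no replicate check.

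High-fat feeding went with lower Ulk1. Ulk1 read 3277 in the HF pool at 24 h and 2154 at 4 h, against 6345 and 3453 in the Control pools. Within each time the HF pool was the lower one, by -0.95 at 24 h and -0.68 at 4 h. Ulk1 fell 1.76-fold (-0.82 ± 0.12, adjusted p = 0.0164). It was the 1 call among the 9 members, none being higher, and the limma fit called 0.564% of all genes higher and 0.321% lower in HF. The second Ulk1 probe set did not show this (-0.15 ± 0.16, adjusted p = 0.742 over probe sets). It had 589 in the HF pool at 24 h and 314 at 4 h, against 647 and 350 in the Control pools. Without the HF pool at 24 h the Ulk1 call was lost (-0.81, adjusted p = 0.0648), as it was with probe sets averaged (-0.48), no filter or no intensity trend. Markers of adipocytes (3 of 9 called higher), fibroblasts (3 of 6) and smooth muscle (1 of 5) moved with the same comparison. Adipoq, the adipocyte hormone adiponectin, had 4280 in the HF pool at 24 h and 4637 at 4 h, against 577 and 901 in the Control pools. The summed signal of the 9 measured adipocyte markers was 49488 to 58287 in HF pools and 37078 to 46872 in Control pools. Most of it was Fabp4, at 26497 to 31773 in HF pools and 21626 to 26207 in Control pools. Plin4 (-0.13), Pparg (-0.16) and Lipe (-0.13) of this list were lower in HF without passing, while 6 of 9 were higher. The 14 macrophage markers were all higher in HF with none passing (median 0.55). Their summed signal was 5787 to 6862 in HF pools and 3953 to 4376 in Control pools. The part of these cells in the Ulk1 value was not tested.

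The other 8 members did not pass for HF against Control. Sqstm1 stood at -0.28 ± 0.08 (adjusted p = 0.173), with HF pools at 9458 and 8206, against 12335 and 9243 in Control pools, at 24 h and 4 h. It was lower in HF at both times. Gabarapl1 stood at -0.31 ± 0.16 (adjusted p = 0.406), with -0.11 at 24 h and -0.52 at 4 h. Tfeb was -0.53 at 24 h and 0.11 at 4 h. The remaining 5 lay between -0.22 (Map1lc3a) and 0.03 (Becn1). The members' median was -0.21, beside 0.00 over all genes, and at an unadjusted p under 0.05 stood 2 of 9, beside 14.7% of all genes.

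Adding iron citrate and ALA to the high-fat diet gave 0 of 9 members called in either direction against HF, where limma called 0% of all genes. At an unadjusted p under 0.05 were 2 of 9 (Map1lc3a and Ulk1), beside 5.08% of all genes. Ulk1 had 3667 in the HF+SFC+ALA pool at 24 h and 2835 at 4 h, against 3277 and 2154 in the HF pools. Its difference was 0.28 ± 0.12 (adjusted p = 0.938, 95% interval 0.02 to 0.54), higher at both times, and 0.27 ± 0.16 in its second probe set. It was 0.094 without the HF+SFC+ALA pool at 4 h and 0.46 without that at 24 h (adjusted p = 0.9996 and 0.9995). Gabarapl1 stood at 0.33 ± 0.16 (adjusted p = 0.97). Its values were -0.08 at 24 h and 0.74 at 4 h, so the average rests on the pools at 4 h, with 1883 in HF+SFC+ALA against 1125 in HF. Slow fibre markers had a median difference of -0.59 at 24 h and 0.71 at 4 h in this comparison, and their part in the Gabarapl1 value was not tested. That HF pool at 4 h was also the one with the outlying actin 3′ to 5′ ratio (1.52), though its Gapdh ratio did not stand apart. The part of this in the Gabarapl1 value was not tested either. At 4 h Gabarapl1 was the 1 of 9 members at least 1.5-fold higher in HF+SFC+ALA, a fold that 3.24% of all genes passed. Map1lc3a stood at -0.25 ± 0.10 (adjusted p = 0.895), lower at both times. Intervals for the other 6 members ran from -0.48 to 0.29, and the 6 estimates lay between -0.17 and 0.09.

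HF+SFC+ALA was also set against Control, which shares pools with both comparisons above. Again 0 of 9 members passed in the limma fit, which called 0.0347% of all genes, while 4 of 9 had an unadjusted p under 0.05, beside 12.4% of all genes. Ulk1 had 3667 in the HF+SFC+ALA pool at 24 h and 2835 at 4 h, against 6345 and 3453 in the Control pools (-0.54 ± 0.12, adjusted p = 0.167). Its second probe set went the other way (0.12 ± 0.16). Map1lc3a had 13384 at 24 h and 14956 at 4 h, against 20331 and 18876 (-0.47 ± 0.10, adjusted p = 0.162), and its second probe set gave -0.18 ± 0.08. Tfeb had 1417 and 1360, against 1979 and 1639 (-0.38 ± 0.14, adjusted p = 0.333), and Sqstm1 stood at -0.24 ± 0.08 (adjusted p = 0.301). These 4 were lower in HF+SFC+ALA at both times. Without the Control pool at 4 h, where 435 genes were called in all, 3 of them passed: Ulk1 (-0.73), Map1lc3a (-0.63) and Tfeb (-0.59). Without the Control pool at 24 h, none of the 3 passed, with Ulk1 at -0.34 (adjusted p = 0.322), Map1lc3a at -0.31 (adjusted p = 0.546) and Tfeb at -0.16 (adjusted p = 0.893). Map1lc3a alone passed when the HF pool at 4 h or that at 24 h was left out. Its estimate stayed at -0.47, as it must, since the HF pools do not enter this difference. Only the spread and the adjustment changed, so this is no check of the difference.

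**Figure D4:**
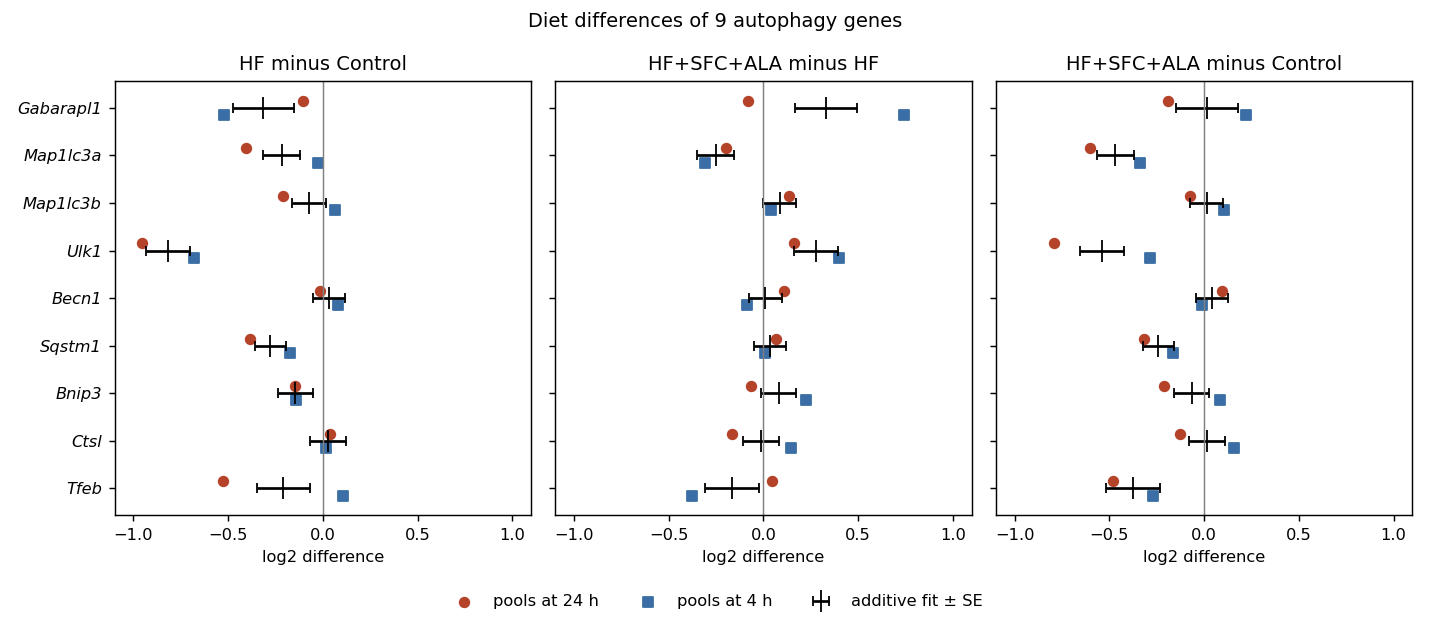
Log2 differences (x axis) of the 9 members for HF minus Control, HF+SFC+ALA minus HF and HF+SFC+ALA minus Control, at 24 h (red circles) and 4 h (blue squares), with the additive fit ± SE (black). Ulk1 is lower in HF at both times (-0.95 and -0.68), and Gabarapl1 differs in HF+SFC+ALA minus HF at 4 h (0.74) but little at 24 h (-0.08).

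The genes whose profile over the 6 pools lay nearest to the 2 members that passed were named by the smallest root mean square distance between mean-centred log2 signals, among 11526 genes. For Gabarapl1 they were Slc25a34, a mitochondrial carrier family member, at 0.03, Angptl4, an inhibitor of lipoprotein lipase, at 0.09, and Asb18 at 0.10. Gabarapl1 itself varied by 0.42 on this scale. For Ulk1 they were Rfx1 and Tbc1d17, both at 0.10, and Exph5, also at 0.10, with Ulk1 varying by 0.47. The fasting differences of these 6 genes ran from 0.58 to 0.72, which follows from choosing them by profile and is no separate result.

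Of 93 other autophagy and lysosome genes in 9 lists, 89 were tested, 4 were not analysed here, and few were called. These lists too were chosen with earlier results of these data known. After 24 h of fasting 4 of 89 rose and 0 fell, beside the 1.49% and 0.92% of all genes above. Their median difference was 0.07, beside 0.01 over all genes, and 15 of 89 did not overlap with 24 h higher (10.6% of all genes) while 2 did not overlap with 24 h lower (8.36% of all genes). Retreg1, a receptor for autophagy of the endoplasmic reticulum, rose by 0.49 ± 0.07 (adjusted p = 0.00984). Retreg1 read 29458, 32055 and 33295 at 24 h in the HF+SFC+ALA, HF and Control pools, against 22983, 21848 and 22746 at 4 h. The Retreg1 difference was 0.36 in HF+SFC+ALA, 0.55 in HF and 0.55 in Control. With 1 pool left out the estimate averages the remaining diets, at 0.45 to 0.55, which is no separate check. None of the 4 calls held with no filter or no intensity trend. Nrbf2, a subunit of the Beclin 1 lipid kinase complex, rose by 0.40 ± 0.07 (adjusted p = 0.0301), with 2555 to 2769 at 24 h and 2011 to 2077 at 4 h. Wipi1, which binds the lipid that this kinase makes, rose by 0.36 ± 0.07 (adjusted p = 0.0349), but by 0.13 with its probe sets averaged. Foxo3, a FoxO transcription factor, rose by 0.39 ± 0.08 (adjusted p = 0.0485), a call lost with quantile normalization (adjusted p = 0.0546). Foxo1, of the same list, had a negative difference without passing (-0.23 ± 0.12, adjusted p = 0.375). Within diets Foxo1 stood at -0.52 in HF+SFC+ALA, -0.35 in HF and 0.17 in Control. The count of 4 was 1 without either HF+SFC+ALA pool. Wipi1 and Foxo3 also did not pass without either HF pool (adjusted p from 0.0669 to 0.0929).

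The lists differed in their medians, which are given as descriptions. The lipid kinase complex had 1 of 7 higher and a median of 0.21, with Atg14, which targets the complex to autophagosomes, at 0.52 ± 0.12 (adjusted p = 0.068). Selective receptors had 1 of 7 higher and a median of 0.17, with 7 of 7 positive. ATG9 and membrane supply had 1 of 9 higher (median 0.11). The transcription factors and upstream kinases had 1 of 16 higher (median 0.06). Depp1, a FoxO target, had 2301, 878 and 7087 at 24 h in the HF+SFC+ALA, HF and Control pools, against 1036, 958 and 1319 at 4 h. The Depp1 value of 1.15 ± 0.35 did not pass (adjusted p = 0.131). It was 1.15 within HF+SFC+ALA, -0.12 within HF and 2.43 within Control. Without either Control pool the Depp1 estimate was 0.51, an average of HF+SFC+ALA and HF, which differ in sign. Without either HF pool it was 1.79. No gene passed among the initiation complex (4 genes, median -0.05, Atg13 at 0.29 ± 0.11), the other ATG8 and conjugation genes (12, median -0.09, Atg7 at -0.25 ± 0.20) or the other mitophagy genes (8, median -0.03, Tbk1 at 0.30 ± 0.09). The same held for fusion (12 genes, median 0.10, Epg5 at 0.30 ± 0.10) and the lysosomal hydrolases and membrane proteins (14, median 0.06, Mcoln1 at 0.17 ± 0.12).

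For HF against Control 0 of 89 of these genes passed in the limma fit, beside 0.885% of all genes, and 17 of 89 had an unadjusted p under 0.05, beside 14.7% of all genes. Without the Control pool at 4 h, 5 of 89 passed, in a fit that called 592 genes in all. The fusion list had 12 of 12 negative differences (median -0.21) and the lysosomal list 12 of 14 (median -0.14). Positive differences were the majority in the ATG8 and conjugation list, at 9 of 12 (median 0.08). They were also the majority in ATG9 and membrane supply, at 5 of 9 (median 0.03). Medians of the remaining lists lay between -0.11 and -0.05. Of all 89, 27 were positive (median -0.09), beside 5759 of 11526 over all genes (median 0.00). Foxo3 stood at -0.46 ± 0.10 (adjusted p = 0.088) and Depp1 at -1.74 ± 0.43 (adjusted p = 0.116). For HF+SFC+ALA against HF, 0 of 89 passed (1 at an unadjusted p under 0.05, beside 5.08% of all genes) and the median was 0.02. Against Control 0 of 89 passed (16 at an unadjusted p under 0.05, beside 12.4% of all genes) and the median was -0.08, while 6 passed without the Control pool at 4 h, in a fit that called 435 genes in all.

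**Figure D5:**
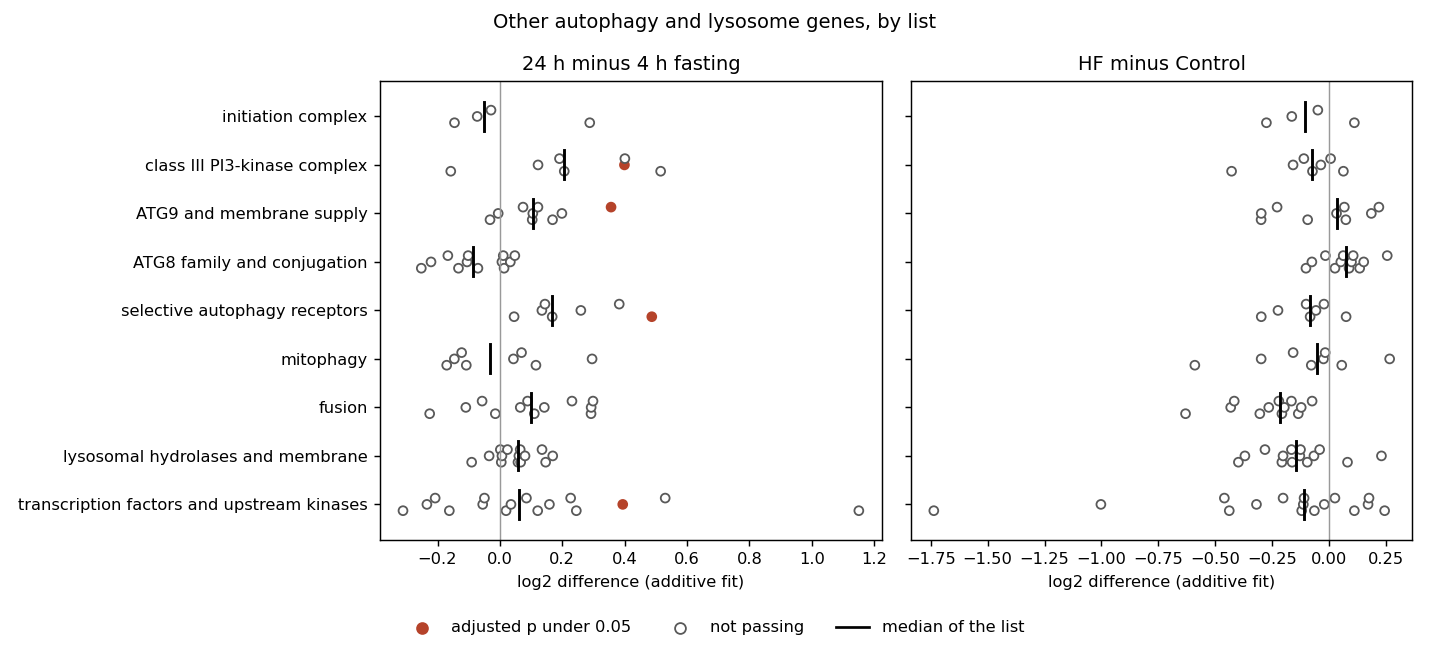
Log2 differences (x axis, additive fit) of 89 other autophagy and lysosome genes in 9 lists (rows) for 24 h minus 4 h fasting and for HF minus Control; filled points pass an adjusted p of 0.05 and bars are list medians. The 4 filled points are Retreg1, Nrbf2, Wipi1 and Foxo3, all for fasting and between 0.36 and 0.49.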

How the data were processed

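RNA pooled within each group was labelled with a 3' IVT kit, per the labels' protocols. The deposited intensity values were made by the authors with MAS5, per the submitters' processing notes; no version of it is known here. Of 45101 probe sets, 64 controls were left out, and the 34945 with 1 gene symbol were named; symbols were updated by gene identifier for 34741. Those with several symbols (932) or none (9160) name no gene. The brightest probe set of a gene by mean log2 signal stood for it, with the others as a check. Genes were kept above the median of all probe sets (5.88). A floor at percentile 30 of all signals (26.4) was applied before log2; 0 of the values used for members lay under it. limma 3.58.1 in R 4.3.3 fitted diet and fasting time (lmFit, eBayes with trend; 7.27 prior degrees of freedom), calls being made at an adjusted p of 0.05. The fit was tested on simulated data.

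All members are named, as are pathway genes that passed in a contrast or had the largest fasting difference of their list. Foxo1 is given beside Foxo3. The members and lists were chosen with earlier results of these data known. Alternatives were 6 other settings, each pool left out in turn and 12 other probe sets; those for the pathway genes were added after seeing the data. Figures were drawn in Python 3.11.15 with matplotlib 3.10.9, pandas 2.3.3 and numpy 2.4.6. Nothing says that pools came from separate sets of animals beyond the groups. The p-values rest on how far these pools depart from the additive model, with a variance largely shared over genes, and not on replicates.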

Additional observations from a re-analysis of the deposited data

How the results depend on the processing

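The members called for fasting (2) and for HF against Control (1) became 0 with no filter on signal, with each gene averaged over its probe sets and with no intensity trend, and those for fasting also became 0 with diet left out of the model. Over all genes, the 278 called for fasting became 0 with no filter, 18 with probe sets averaged, 0 with no trend and 60 without diet. The 102 called for HF against Control became 0, 1 and 0 in the first 3 of these, and the 4 called for HF+SFC+ALA against Control became 0 in the same 3 and with quantile normalization. The 4 pathway genes called for fasting became 0, 1, 0 and 1. The cause was not tested. With a pseudocount instead of the floor, the members called were unchanged in number for all 4 contrasts.

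With each pool left out in turn, 1 residual degree of freedom remained. The other pool of that diet is then fitted exactly, so leaving out either pool of a diet gives the same fasting estimate. Members called then numbered 2 throughout for fasting, although not always the same 2 genes (Sqstm1 passed and Gabarapl1 did not without either HF pool), 0 to 1 for HF against Control, 0 for HF+SFC+ALA against HF and 0 to 3 for HF+SFC+ALA against Control. Genes called over the whole array ranged from 59 to 455 for fasting, 47 to 592 for HF against Control, 0 to 109 for HF+SFC+ALA against HF and 0 to 435 for HF+SFC+ALA against Control. Pathway genes called ranged from 1 to 6, 0 to 5, 0 to 2 and 0 to 6 in the same contrasts. The lowest counts for fasting came without either HF+SFC+ALA pool, and the highest for both contrasts with Control came without the Control pool at 4 h.

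Small differences that had not passed turned sign when a pool was left out. For HF against Control the values ran from -0.058 to 0.11 for Ctsl, -0.19 to 0.041 for Map1lc3b, -0.47 to 0.054 for Tfeb and -0.040 to 0.10 for Becn1. For HF+SFC+ALA against HF they ran from -0.16 to 0.14 for Ctsl, -0.0067 to 0.18 for Map1lc3b, -0.43 to 0.10 for Tfeb, -0.065 to 0.085 for Becn1, -0.066 to 0.23 for Bnip3 and -0.032 to 0.10 for Sqstm1. For HF+SFC+ALA against Control they ran from -0.13 to 0.16 for Ctsl, -0.10 to 0.13 for Map1lc3b, -0.032 to 0.12 for Becn1, -0.21 to 0.081 for Bnip3 and -0.29 to 0.33 for Gabarapl1. For fasting they ran from -0.15 to 0.17 for Tfeb, -0.43 to 0.029 for Atg7 and -0.0087 to 0.28 for Mcoln1.

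Other settings also turned such values. With probe sets averaged, HF against Control gave 0.031 for Map1lc3b and -0.19 for Ctsl, HF+SFC+ALA against HF gave -0.029 for Map1lc3b, -0.18 for Sqstm1 and 0.045 for Ctsl, and HF+SFC+ALA against Control gave -0.0039 for Gabarapl1 and -0.14 for Ctsl. With quantile normalization Becn1 gave -0.0092 for HF+SFC+ALA against HF. Read from other probe sets of the gene, fasting gave 0.34 for Becn1 and 0.020 for Map1lc3a, and HF against Control gave -0.41 for Ctsl and, from 2 sets of Map1lc3b, 0.0090 and, under the filter, 0.36. HF+SFC+ALA against HF gave -0.050 for Becn1, 0.10 for Ctsl and, from sets under the filter on signal and so untested, -0.39 for Sqstm1 and -0.32 for Map1lc3b there, and HF+SFC+ALA against Control gave -0.0076 for Becn1, -0.30 for Ctsl, -0.024 for Gabarapl1, -0.081 for Map1lc3b and 0.12 for Ulk1.

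Precision is limited by 6 arrays and 2 residual degrees of freedom, so intervals are wide and a difference that missed the threshold is not shown to be absent. Every pool is the only one of its combination, so a pool's own deviation and a diet-specific fasting response cannot be told apart. The fasting test compared times within diet, since diet was in the model. No replicate block was added to it, because each combination has 1 pool and the labels give no numbers that pair them.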
